A study of Mus musculus with 7 samples.

Results

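A set of 10 genes that mark resident macrophages lying along blood vessels were followed in macrophages sorted from the inflamed mouse colon. They are Lyve1, Folr2, Timd4, Cd163, Cbr2, Vsig4, F13a1, Mrc1, Stab1 and Igf1, and all 10 were measured among the 22180 genes of the table. Each had 1 probe set that the platform annotation gives to it alone. The genes were picked from a known expression programme after the genotype differences of some of them (Lyve1, Timd4, Cd163 and F13a1) had been seen in these arrays. Where a gene had several probe sets the rule selected on the highest mean over the 7 arrays, but with 1 probe set per member it made no choice here. The differences between genotypes are therefore given as a description, and no direction shared by the members is evidence on its own.

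The arrays (Affymetrix Mouse Gene 2.0 ST, 1 per sorted sample) came from mice with both Rictor alleles floxed (Rictorfl/fl). Rictor encodes the subunit that defines the kinase complex mTORC2. The 3 control samples carried no cre (LysM+/+), and the 4 others carried 1 copy of cre in the LysM (Lyz2) locus (LysM+/cre), which is active in macrophages, monocytes and neutrophils. All mice in both groups had colitis from 5% dextran sulphate sodium, a polysaccharide toxic to the colon epithelium, drunk for 5 days, with normal water for the last 3 days. The sort kept cells positive for CD45, CD11b, CD64 and MHCII and negative for Ly6C. Age, sex and the number of mice per sample are not stated in what was used here. No group carried cre without floxed Rictor, so the effects of cre, of its insertion in Lyz2 and of Rictor loss cannot be told apart, and p-values measure the spread between these samples, which may be technical.

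Macrophages of the gut wall are of several kinds. Most are replaced steadily from blood monocytes, while a smaller number live long and renew themselves locally. The long-lived cells sit next to vessels and nerves, take up debris and serum proteins, and are known for the hyaluronan receptor LYVE1 together with TIM4, FOLR2, CD163 and the mannose receptor, whereas cells newly made from monocytes carry CCR2 and less of these proteins. Some of the genes are not exclusive to macrophages. LYVE1, the mannose receptor and stabilin-1 are also made by lymphatic or sinusoidal endothelium, Igf1 by fibroblasts, and F13a1 by monocytes. The position of cells in the tissue was not measured, so "perivascular" is the name of the programme and not a result.

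Upstream sequence could be taken from RefSeq (build GRCm38.p6) for 9 members with 11 annotated starts. The 250 bases before the start are shown for Stab1, Cbr2 and Folr2, because these were the members whose levels followed Lyve1 most closely once the genotype means were removed (values further on). Each is printed 5′ to 3′ on the strand of the gene, and capitals mark GAGGAA, the core letters bound by the macrophage factor PU.1 and other ETS proteins, or TGCTGA, a half-site of MAF factors, on either strand. Folr2 has 2 annotated starts, at chr7:101857191-101857440 (first below) and chr7:101845332-101845581, both on the minus strand. Stab1 lies at chr14:31168642-31168891 and Cbr2 at chr11:120732022-120732271, also on the minus strand.
Stab1: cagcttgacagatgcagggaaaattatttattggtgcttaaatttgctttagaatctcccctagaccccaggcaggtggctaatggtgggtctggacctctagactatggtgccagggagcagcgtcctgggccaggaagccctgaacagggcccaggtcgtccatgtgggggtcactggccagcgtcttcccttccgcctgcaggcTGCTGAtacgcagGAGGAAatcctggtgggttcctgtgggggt
Cbr2: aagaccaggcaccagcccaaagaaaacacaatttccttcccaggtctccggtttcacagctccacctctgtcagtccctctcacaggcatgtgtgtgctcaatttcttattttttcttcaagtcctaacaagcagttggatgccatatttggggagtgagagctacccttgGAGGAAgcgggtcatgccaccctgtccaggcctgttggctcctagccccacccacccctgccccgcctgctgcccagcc
Folr2, first start: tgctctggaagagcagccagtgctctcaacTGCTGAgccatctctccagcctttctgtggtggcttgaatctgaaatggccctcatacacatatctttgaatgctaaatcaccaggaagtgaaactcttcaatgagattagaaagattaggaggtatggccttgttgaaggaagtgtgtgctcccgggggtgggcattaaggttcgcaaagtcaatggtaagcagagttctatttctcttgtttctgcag
Folr2, second start: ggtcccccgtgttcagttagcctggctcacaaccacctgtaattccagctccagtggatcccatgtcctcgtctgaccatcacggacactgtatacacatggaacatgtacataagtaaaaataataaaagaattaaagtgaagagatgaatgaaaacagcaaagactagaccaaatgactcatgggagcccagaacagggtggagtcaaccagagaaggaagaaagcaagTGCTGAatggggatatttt
Of the 11 upstream stretches, 6 held GAGGAA and 4 held TGCTGA, against 23.3% and 16.1% of all 32851 stretches of the same length. Stab1 held one of each, with TGCTGA beginning 43 bases and GAGGAA 30 bases before the start. The E-box CACGTG, read by MITF and TFE factors, was in 0 of the 11 and in 6.02% of all. These letters are a description of sequence, and binding was not measured.

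The floxed gene itself did not separate the genotypes. Rictor lay between 7.74 and 7.80 (log2 intensity) on the LysM+/+ arrays and between 7.72 and 8.25 on the LysM+/cre arrays, a difference of 0.12 ± 0.13 (SE), and since the exons its probes cover are unknown here, this checks nothing about the labels. Array medians lay between 5.16 and 5.22, and with 7 arrays in all the precision is low. The mean of 14 genes of macrophages in general was 10.82 to 11.06 without cre and 10.91 to 11.21 with cre. Of these genes 10 were higher and 4 lower with cre, with 3 higher and 1 lower at an unadjusted p under 0.05 and 0 past the adjusted p. Over all genes 4.93% were lower at that unadjusted p, and the share higher was not counted. Aif1 (IBA1) differed by 0.67 ± 0.20 (SE), Spi1, which encodes PU.1, by 0.24 ± 0.09 (SE) and Cd68, a lysosomal membrane protein, by -0.20 ± 0.08 (SE), the last 2 without overlap. Of 7 genes for the sorting markers, 4 were higher and 3 lower with cre. Fcgr1 (CD64, 0.97 ± 0.26 SE) and Itgam (CD11b, 0.53 ± 0.19 SE) were higher, as was Ly6c2 (1.09 ± 0.41 SE), 1 of the genes for the excluded marker Ly6C. These 3 had adjusted p = 0.362, 0.415 and 0.415 in limma. Ptprc (CD45) differed by 0.25 ± 0.11 (SE). The MHCII genes H2-Ab1 and H2-Aa differed by -0.04 and -0.06, and Ly6c1, another Ly6C gene, by -0.09.

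All 10 resident macrophage genes had a lower mean on the LysM+/cre arrays, with differences from -1.75 to -0.42 on the log2 scale and a median of -1.01 against 0.0044 over all genes tested. None passed the adjustment over all genes in limma, where 0 of 22180 genes (0%) passed; the smallest adjusted p of a member was 0.394. At an unadjusted p under 0.05, 5 members were lower (Timd4, Vsig4, F13a1, Cd163 and Cbr2), where 4.93% of all genes were. For 4 of them (all but Cbr2) every LysM+/cre array lay below every LysM+/+ array, as it did for 3.56% of all genes. Of the members, 8 were at least 1.5-fold lower, against 2.55% of all genes. The count at an unadjusted p under 0.05 was 2 when LysM+/+ array 1 or 2 or LysM+/cre array 1 or 4 was left out, and 7 without LysM+/+ array 3. In these fits 3.23% to 5.51% of all genes were lower at that p. In bulk RNA, fewer cells of this kind and less of these transcripts per cell cannot be told apart.

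**Figure D1:**
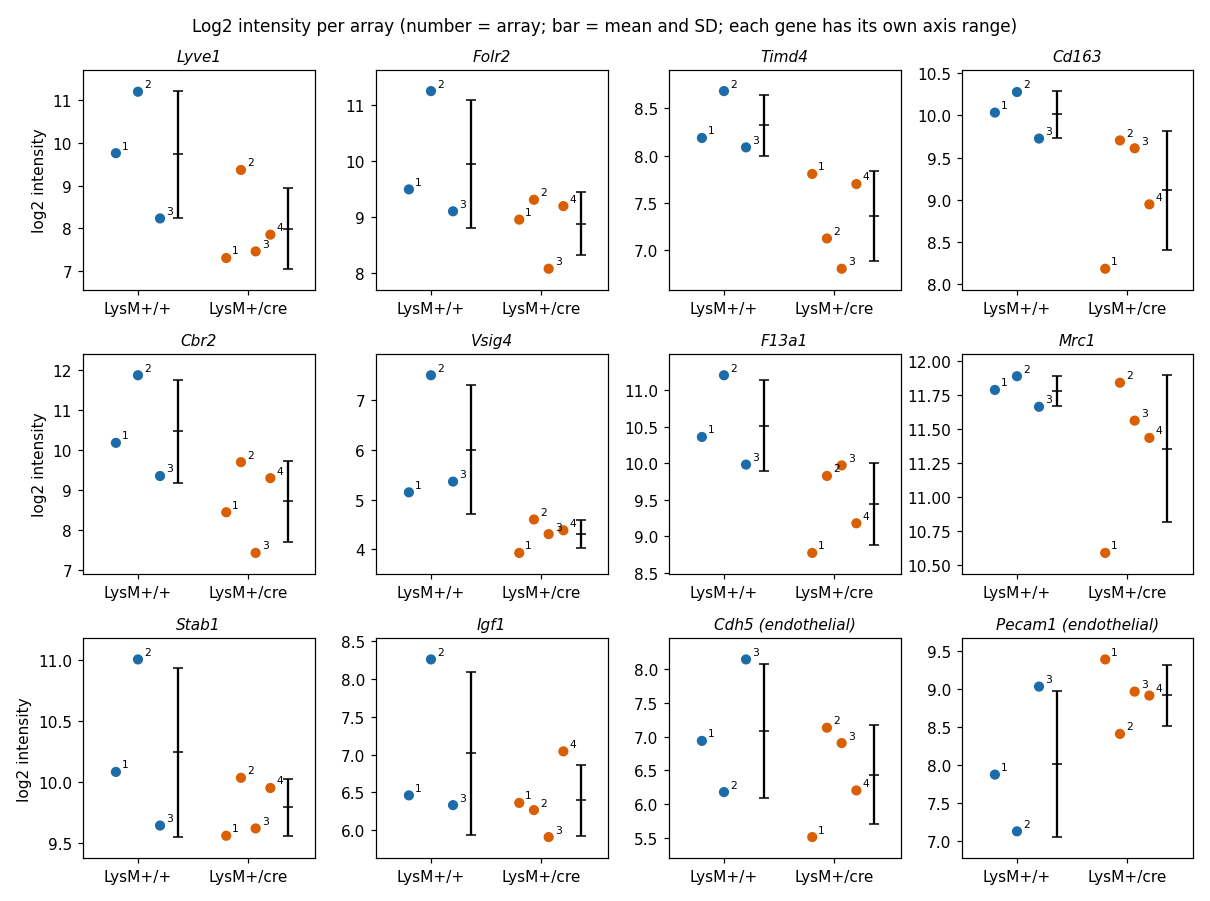
Log2 intensity of the 10 resident macrophage genes and of the endothelial genes Cdh5 and Pecam1 on each array (y axis, own range per gene) by genotype (x axis); points are arrays with their numbers, and bars give the mean and SD (n = 3 and n = 4). LysM+/+ array 2 is the highest point for all 10 members, for example at 11.19 for Lyve1 and 7.5 for Vsig4, and is the lowest for Pecam1 at 7.13.

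The surface receptors for matrix and debris came first. Lyve1, which binds hyaluronan, a large sugar polymer of the matrix, measured 9.76, 11.19 and 8.23 on the LysM+/+ arrays 1 to 3. On the LysM+/cre arrays 1 to 4 it measured 7.31, 9.36, 7.46 and 7.85. LysM+/cre array 2 lay above LysM+/+ array 3, so the genotypes overlapped, and the other 3 cre arrays lay below all controls. The means were 9.73 ± 1.48 (SD, n = 3) and 7.997 ± 0.94 (SD, n = 4), a difference of -1.73 ± 0.77 (SE, limma adjusted p = 0.451), or 3.31-fold.

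Stab1, the scavenger receptor stabilin-1, measured 10.08, 11.003 and 9.65 without cre and 9.56, 10.04, 9.62 and 9.95 with cre. The groups overlapped, and the difference of -0.45 ± 0.31 (SE) came to -0.07 without LysM+/+ array 2. Mrc1, the mannose receptor CD206, measured 11.79, 11.89 and 11.66 without cre and 10.59, 11.84, 11.56 and 11.43 with cre. Here 1 array stood low, LysM+/cre array 1, and without it the difference of -0.42 ± 0.28 (SE) was -0.17.

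Cd163, the receptor that clears haemoglobin bound to haptoglobin, measured 10.03, 10.28 and 9.73 without cre. With cre it measured 8.18, 9.70, 9.61 and 8.95. The groups did not overlap but nearly touched, at 9.73 and 9.70. The difference was -0.90 ± 0.38 (SE, limma adjusted p = 0.433), and -0.59 without LysM+/cre array 1.

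Timd4, which encodes the phosphatidylserine receptor TIM4 used to engulf dying cells, had the smallest p of the members. Its values were 8.19, 8.68 and 8.09 without cre against 7.81, 7.12, 6.80 and 7.70 with cre, with no overlap. The difference was -0.96 ± 0.28 (SE, limma unadjusted p = 0.0109, adjusted p = 0.394), and it stayed between -1.11 and -0.77 when single arrays were left out.

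Vsig4, the complement receptor CRIg, measured 5.15, 7.5 and 5.36 without cre and 3.93, 4.60, 4.30 and 4.38 with cre. Every cre array lay below every control, though the SD of the controls (1.30) rests on array 2. The difference was -1.70 ± 0.56 (SE, limma adjusted p = 0.404), and -0.95 without that array. All cre values lay below the array medians, a range where background signal can narrow differences, and no detection calls were used. Folr2, the folate receptor beta of macrophages, measured 9.49, 11.24 and 9.10 without cre against 8.95, 9.30, 8.07 and 9.19 with cre. LysM+/cre arrays 2 and 4 fell within the control range, and the difference of -1.06 ± 0.55 (SE) was -0.41 without LysM+/+ array 2.

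The secreted and enzymatic members followed. Cbr2, a carbonyl reductase used as a marker of this programme, had the largest difference, with 10.18, 11.87 and 9.35 without cre and 8.45, 9.70, 7.43 and 9.30 with cre. LysM+/cre array 2 overlapped the controls. The difference was -1.75 ± 0.73 (SE, limma adjusted p = 0.434), or 3.36-fold, and -1.05 without LysM+/+ array 2. F13a1, the catalytic subunit of the clotting factor XIII that crosslinks fibrin, measured 10.36, 11.20 and 9.98 without cre and 8.78, 9.83, 9.97 and 9.18 with cre. The nearest values of the groups were 9.98 and 9.97, and the difference was -1.08 ± 0.39 (SE, limma adjusted p = 0.414). Igf1, insulin-like growth factor 1, measured 6.46, 8.26 and 6.33 without cre and 6.36, 6.26, 5.91 and 7.04 with cre. Its difference of -0.62 ± 0.51 (SE) rested on LysM+/+ array 2 alone, without which it was -0.0015.

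**Figure D2:**
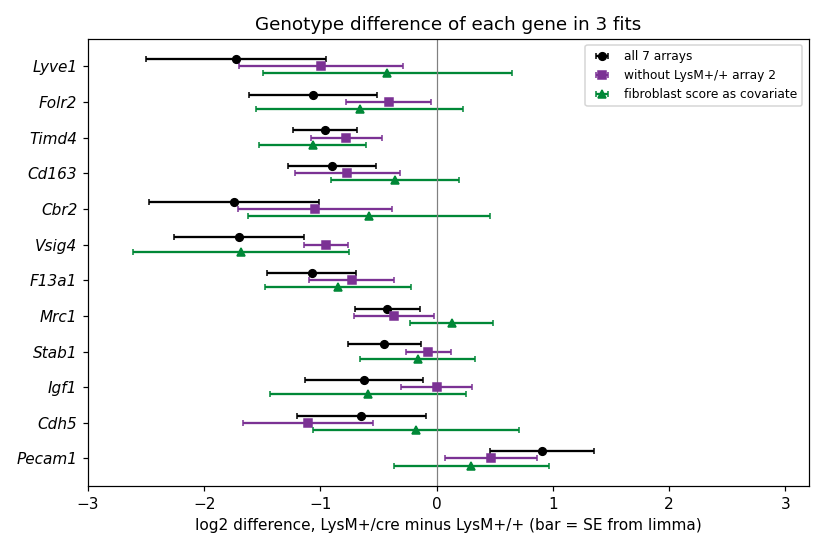
Difference between genotypes for each gene (x axis, log2, LysM+/cre minus LysM+/+, bars give the SE from limma) with all 7 arrays, without LysM+/+ array 2, and with a fibroblast score added to the fit. Timd4 lies at -0.96, -0.78 and -1.07 in these fits, Lyve1 at -1.73, -0.997 and -0.42, and Mrc1 goes from -0.42 with all arrays to 0.13 with the score.

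LysM+/+ array 2 was the highest of the 7 arrays for 10 of 10 members, and for 16.5% of all genes. The same array was highest for 15 of 18 other resident macrophage genes and lowest for 6 of 10 neutrophil genes and 6 of 11 monocyte genes. The share of all genes lowest on this array was not counted, so the last 2 counts have no background beside them. These arrays are single samples, and whether the array differs in its cells or in its handling was not tested.

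The members moved together over arrays, but not as 1 block. Over all 45 pairs, Pearson's r ran from 0.13 to 0.97 with a median of 0.77, Spearman's rho had a median of 0.79, and 13 pairs passed an adjusted p of 0.05 in an exact permutation test of Pearson's r, adjusted over the 66 pairs of 12 genes that were compared (10 for rho). Values as measured include the difference between genotypes, which had been seen for some members before the list was picked. The p-values of r and rho as measured, here and below, are therefore not independent of the choice of members. Only the form with genotype means removed leaves that difference out. With genotype means removed the median r was 0.62 and 42 of 45 pairs were above 0. Permuting within genotypes, 12 pairs had an unadjusted p under 0.05 and 0 an adjusted one (exact, 144 pairings, smallest adjusted p = 0.115). Without LysM+/+ array 2 the median r over the pairs was 0.52. With genotype means removed as well it was 0.47, and 34 of 45 pairs were above 0.

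Lyve1 went most closely with Cbr2 (r = 0.93, rho = 0.96, exact permutation adjusted p = 0.0131 and 0.0306) and Stab1 (r = 0.92, rho = 0.96, exact permutation adjusted p = 0.0226 and 0.0306). Leaving out the 2 arrays farthest from the median of Lyve1 gave r = 0.75 for both. With genotype means removed, r was 0.91 for Stab1 (exact permutation p = 0.00694, the smallest that 144 pairings can give, adjusted p = 0.115), 0.88 for Cbr2 and 0.82 for Folr2. Timd4 had the lowest r with Lyve1, at r = 0.61 and rho = 0.64 (exact permutation adjusted p = 0.229 and 0.213), and at 0.20 with genotype means removed. Igf1 had r = 0.70 and rho = 0.46 (exact permutation adjusted p = 0.127 and 0.399). That r was 0.06 without LysM+/+ array 2. In all, 7 of the 9 other members had r of at least 0.7 with Lyve1, as did 6.38% of all genes, and 5 of 9 with genotype means removed, as did 8.12% of all genes. Without LysM+/+ array 2 these counts were 5 of 9 and 2 of 9, with the shares of all genes not counted. The mean of 14 genes of macrophages in general had r = 0.08 and rho = -0.07 with Lyve1 (exact permutation adjusted p = 0.910 and 0.965, over 33 relations). With genotype means removed that r was 0.65. For single genes of that list it then ran from -0.76 for Cd14 to 0.94 for C1qc.

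Tighter groups were visible within the 10, described after their values were seen. Cd163, F13a1 and Mrc1 were all lowest on LysM+/cre array 1, as were Lyve1, Vsig4 and Stab1. Cd163 had r = 0.94 with both F13a1 and Mrc1 (rho = 0.96 and 0.89, exact permutation adjusted p of r = 0.0196 for both), and 0.88 with F13a1 and 0.95 with Mrc1 after genotype means were removed. Folr2, Cbr2 and Timd4 were lowest on LysM+/cre array 3, as was Igf1. Folr2 and Cbr2 had r = 0.97 and rho = 0.96 (exact permutation adjusted p = 0.0131 and 0.0306), and r = 0.95 with genotype means removed. Timd4 had r = 0.28 with Cd163 and 0.13 with Mrc1 (rho = 0.68 and 0.43, exact permutation adjusted p of r = 0.634 and 0.842). With genotype means removed these were -0.60 and -0.54, neither of which passed the test (exact permutation p = 0.285 and 0.396). Within the LysM+/cre group, Timd4 was highest (7.81) on the array where Cd163, F13a1 and Mrc1 were lowest.

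**Figure D3:**
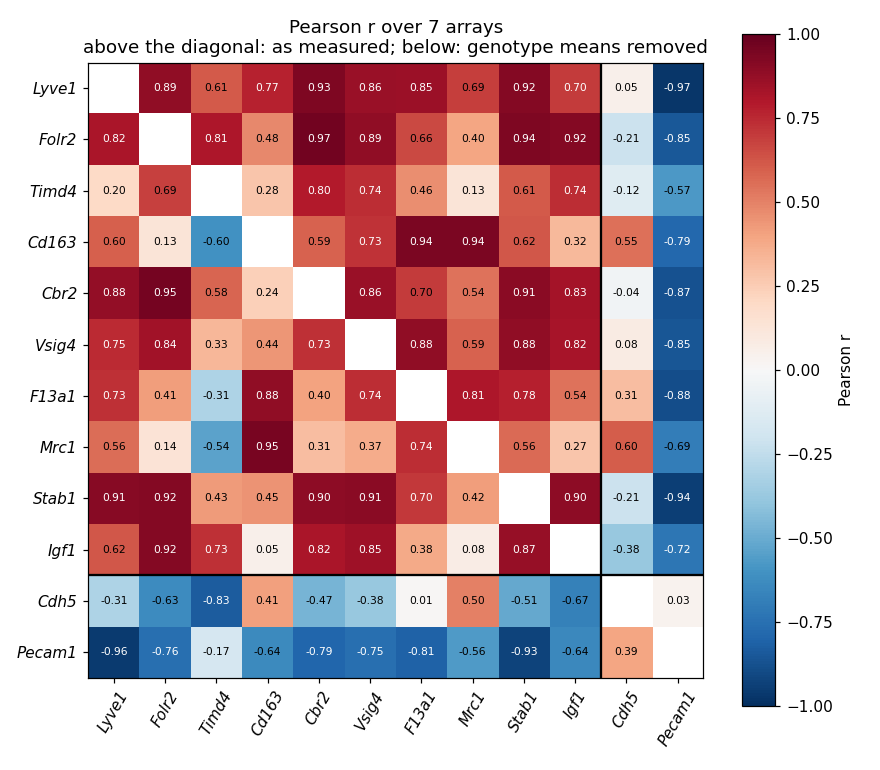
Pearson's r over the 7 arrays for each pair of 12 genes, with values as measured above the diagonal and with genotype means removed below it; lines set off Cdh5 and Pecam1. Pairs of members are above 0 except Timd4 with Cd163, F13a1 and Mrc1 below the diagonal, the Pecam1 column and row are below 0 for all 10 members, and those of Cdh5 are mixed.

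The comparison with endothelium rests on Cdh5, which encodes VE-cadherin of endothelial junctions, and Pecam1, which encodes CD31. CD31 is also found on monocytes, neutrophils and platelets. Cdh5 measured 6.94, 6.18 and 8.15 without cre and 5.51, 7.13, 6.90 and 6.20 with cre, a difference of -0.65 ± 0.55 (SE, limma adjusted p = 0.666). Leaving out LysM+/+ array 2 gave -1.11, leaving out LysM+/+ array 3 gave -0.12, and leaving out LysM+/cre array 1 gave -0.34. It was highest on LysM+/+ array 3, not on array 2. Pecam1 measured 7.88, 7.13 and 9.04 without cre and 9.39, 8.41, 8.97 and 8.92 with cre, and was higher with cre by 0.91 ± 0.45 (SE, limma adjusted p = 0.482), or by 0.47 without LysM+/+ array 2 and 1.42 without LysM+/+ array 3. Its groups overlapped through LysM+/+ array 3.

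Cdh5 had r between -0.38 and 0.60 with the members and a median of 0.0071, and 0 of 10 pairs had an exact permutation p under 0.05. Without LysM+/+ array 2, however, 9 of 10 were above 0 with a median of 0.35, and r reached 0.86 with Vsig4, 0.82 with Cd163, 0.78 with F13a1 and 0.78 with Mrc1. With genotype means removed the median was -0.42, and Timd4 had r = -0.83 (exact permutation p = 0.0417, adjusted p = 0.189). With Lyve1 it had r = 0.05 and rho = 0.29 (exact permutation adjusted p = 0.944 and 0.612), and r = 0.43 without that array. Pecam1 ran opposite to all 10 members, with r between -0.97 and -0.57 and 5 of 10 pairs past an adjusted p of 0.05, against 1 of 10 by rho and 0 of 10 with genotype means removed. Without LysM+/+ array 2 all 10 stayed below 0 with a median of -0.71, but r was only -0.16 for Timd4 and -0.05 for Igf1. With genotype means removed as well, 9 of 10 were below 0 and Timd4 had r = 0.28. The r of Pecam1 with Lyve1 was -0.97 and its rho -0.89 (exact permutation adjusted p = 0.0196 and 0.0541). That r was -0.89 without the 2 arrays farthest from the median of Lyve1, -0.94 without LysM+/+ array 2 and -0.96 with genotype means removed (exact permutation p = 0.00694, adjusted p = 0.115). Cdh5 and Pecam1 did not go together (r = 0.03, rho = -0.04, exact permutation adjusted p = 0.944 and 0.964). With the mean of both as a covariate all 10 members had a lower mean with cre, and Lyve1 differed by -1.56. Because the 2 genes differed between genotypes in opposite directions, their mean largely cancels that difference. Centred, it was -0.22, -0.97 and 0.97 without cre and -0.17, 0.15, 0.31 and -0.07 with cre. This fit therefore cannot show whether endothelial content bears on the members.

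**Figure D4:**
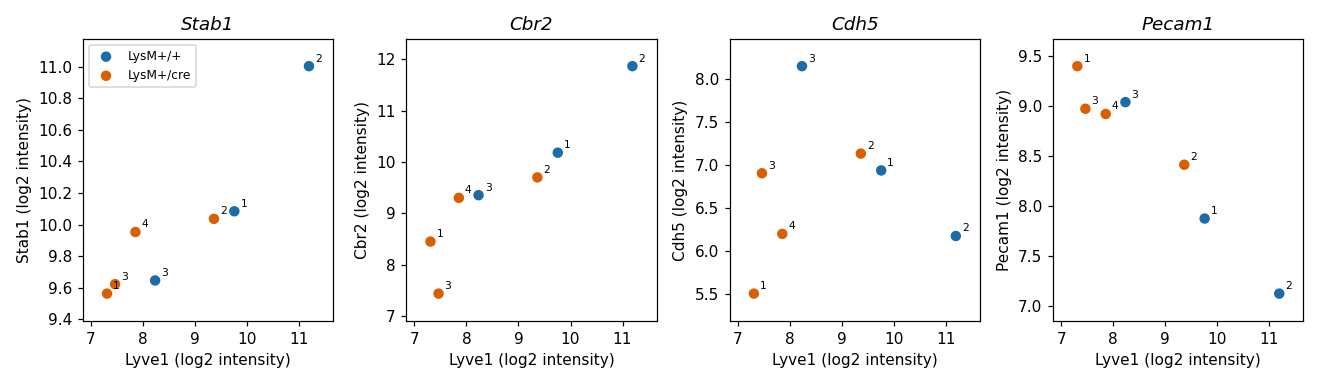
Log2 intensity of Stab1, Cbr2, Cdh5 and Pecam1 (y axes) against that of Lyve1 (x axis) on the 7 arrays, coloured by genotype and numbered by array. Stab1 and Cbr2 go up with Lyve1 (r = 0.92 and 0.93), Pecam1 goes down (r = -0.97) and Cdh5 has r = 0.05, or 0.43 without LysM+/+ array 2.

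Marker lists of other cells were read beside the members. The mean over 15 blood endothelial genes was 5.71 to 6.45 without cre and 5.85 to 5.92 with cre, with 14 of 15 lower and 0 past the adjusted p. It was lowest on LysM+/+ array 2, where Lyve1 was highest. Pecam1 was the 1 gene of this list that was higher with cre. With the mean of the other 14 genes, Cdh5 had r = 0.74 and rho = 0.50 (exact permutation adjusted p = 0.332 and 0.832). Pecam1 had r = 0.15 and rho = -0.07 with it (exact permutation adjusted p = 0.844 and 0.965). With genotype means removed, r was 0.70 for Cdh5 and 0.77 for Pecam1. The mean of 5 lymphatic endothelial genes was 5.67 to 5.90 without cre and 5.58 to 5.78 with cre. Of the 5, 4 were lower with cre, with a median of -0.17, and 0 had an unadjusted p under 0.05; Mmrn1, multimerin-1, differed by -0.29 ± 0.16 (SE). The exception was Prox1, the master factor of lymphatic endothelium, at 4.01 to 4.38 over the arrays and a difference of 0.17 ± 0.08 (SE). Over arrays, Lyve1 had r = -0.25 with the blood endothelial mean and r = 0.28 with the lymphatic mean (rho = 0.11 and 0.36, exact permutation adjusted p of r = 0.792 and 0.781, adjusted over 33 relations chosen after the data were seen). Without LysM+/+ array 2 these r were 0.18 and 0.67. With genotype means removed they were -0.74 and -0.097.

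Fibroblast genes leaned with the members. The mean of 12 such genes was 7.42 to 7.68 without cre and 6.84 to 7.39 with cre. Of the 12, 10 were lower, 5 of them at an unadjusted p under 0.05, where 48.6% and 4.93% of all genes were. Dcn, the matrix proteoglycan decorin, differed by -1.38 ± 0.27 (SE, limma adjusted p = 0.328) and had the smallest p of the list. The 2 higher genes were the collagen genes Col3a1, at 0.17 ± 0.18 (SE), and Col1a1, at 0.04 ± 0.15 (SE), and Col1a2 differed by -0.03 ± 0.15 (SE). Lyve1 had r = 0.77 and rho = 0.93 with this mean (exact permutation adjusted p = 0.289 and 0.111), r = 0.83 without the 2 arrays farthest from the median of Lyve1, and 0.55 with genotype means removed. With the fibroblast score as a covariate, the differences were -0.42 for Lyve1, -0.58 for Cbr2, -0.36 for Cd163 and 0.13 for Mrc1, but -1.07 for Timd4 and -1.69 for Vsig4. Then 0 members had an unadjusted p under 0.05, and 2.36% of all genes were lower at that p, against 4.93% without the score. The SEs were larger with the score, at 1.07 for Lyve1, 0.46 for Timd4 and 0.93 for Vsig4. Without it they were 0.77, 0.28 and 0.56. Any part of fibroblast RNA in the members' values was not tested beyond this fit.

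Monocyte genes ran the other way. Of 11 measured, 10 were higher with cre, 3 at an unadjusted p under 0.05, by a median of 0.87, and their mean was 7.25 to 7.80 without cre and 8.15 to 8.90 with cre. Over all genes 48.6% were lower, and the share higher at that p was not counted. Itgal, the integrin subunit CD11a, was higher by 0.87 ± 0.22 (SE, limma adjusted p = 0.355) and Treml4 by 1.31 ± 0.46 (SE, limma adjusted p = 0.408). Lyve1 had r = -0.82 and rho = -0.93 with the monocyte mean (exact permutation adjusted p = 0.205 and 0.111), -0.49 without the 2 arrays farthest from its median, and -0.67 with genotype means removed. Pecam1 had r = 0.82 and rho = 0.75 with that mean (exact permutation adjusted p = 0.205 and 0.364). Neutrophil genes, with a mean of 5.40 to 7.43 without cre and 6.29 to 8.67 with cre, were lowest on LysM+/+ array 2 and highest on LysM+/cre array 3. All 10 had a higher mean with cre, by a median of 0.51, and Mmp9, a gelatinase of neutrophil granules, by 1.35 ± 0.45 (SE, limma adjusted p = 0.406). Their part in the members' values was not tested beyond the covariate fit given further on. Epithelial genes were lower with cre for 10 of 10, with a mean of 6.81 to 8.14 without cre and 6.87 to 7.73 with cre, and Lyve1 had r = 0.37 and rho = 0.18 with that mean (exact permutation adjusted p = 0.781 and 0.965). Dendritic cell genes were lower for 5 of 7, lymphocyte and plasma cell genes for 4 of 9, and mast cell and eosinophil genes for 3 of 7, and 0 genes of these lists passed the adjusted p.

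**Figure D5:**
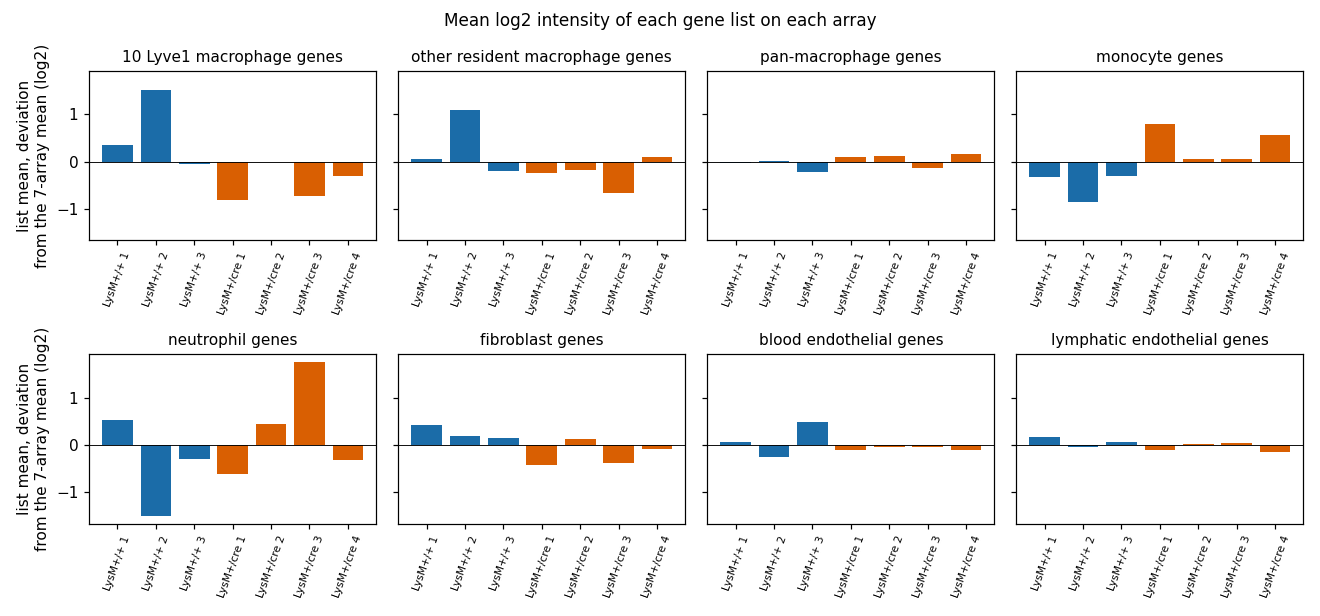
Mean log2 intensity of 8 gene lists on each array (x axis), as the deviation from the list's mean over the 7 arrays (y axis, log2; blue LysM+/+, orange LysM+/cre). The members and the other resident macrophage genes peak on LysM+/+ array 2 (10.31 and 9.30 before centring), monocyte and neutrophil genes are lowest there (7.25 and 5.40), and general macrophage genes stay between 10.82 and 11.21.

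Other genes of long-lived tissue macrophages, from a list that shares no gene with the 10, leaned the same way. This list too was chosen with earlier results of these data known. Of 18 measured genes 16 were lower with cre, with a median of -0.56, where 48.6% of all genes were lower. In limma 0 passed the adjusted p, and 3 (Fcna, Selenop and Colec12) were lower at an unadjusted p under 0.05, where 4.93% of all genes were. Fcna, the lectin ficolin A, differed by -1.43 ± 0.49 (SE, limma adjusted p = 0.406), Colec12, a scavenger collectin, by -0.97 ± 0.40 (SE, limma adjusted p = 0.431) and Clec10a, a galactose-binding lectin, by -1.25 ± 0.53 (SE, limma adjusted p = 0.437). Selenop, selenoprotein P, differed by -0.19 ± 0.07 (SE, limma adjusted p = 0.414). The groups did not overlap for 4 of the 18 genes, with Selenop, Colec12 and Clec10a among them, as for 3.56% of all genes. Maf, a transcription factor of resident macrophages, measured 8.24, 9.41 and 8.35 without cre and 7.75, 8.25, 7.69 and 8.25 with cre. The 2 exceptions were the chemokine gene Ccl8, at 0.30 ± 0.38 (SE), and Cd209b, at 0.04 ± 0.34 (SE).

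Partners and relatives of the members had no common direction. Of 25 measured, 12 were lower and 13 higher, with a median of 0.03, and 1 was lower at an unadjusted p under 0.05. That gene was Igfbp3, which binds IGF1 in serum and tissue, at -1.55 ± 0.48 (SE, limma adjusted p = 0.395). Cd44, the other main hyaluronan receptor of leukocytes, differed by 0.04 ± 0.09 (SE), Stab2, the relative of stabilin-1, by -0.07 ± 0.08 (SE), and Igf1r, the IGF1 receptor, by -0.21 ± 0.19 (SE). Hmox1, which degrades the haem that CD163 brings in, differed by -1.04 ± 0.49 (SE, limma adjusted p = 0.468), and Slc19a1, a folate carrier, by 0.26 ± 0.12 (SE, limma adjusted p = 0.449). Igfbp5, another IGF-binding protein, differed by 0.93 ± 0.46 (SE, limma adjusted p = 0.489), opposite in sign to Igfbp3, and Hp, the haptoglobin that CD163 recognises in complex with haemoglobin, by 1.51 ± 1.09 (SE, limma adjusted p = 0.616).

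The genes most like Lyve1 over the 7 arrays were found among 1870 genes above the median level with a range of at least 1 log2. The closest 10 were Lncpint, Nckipsd, Mtmr10, Ccn1, S100a10, Ltc4s, Sesn1, Fcna, Marveld1 and Mettl7a1, with r from 0.97 to 0.94, given without a test since they were chosen on it. Ltc4s, leukotriene C4 synthase, and Fcna were also on the list of other resident macrophage genes. Ltc4s measured 6.86, 7.43 and 6.004 without cre and 5.93, 6.33, 5.603 and 6.11 with cre. Among the members Cbr2 ranked 16th in this order, Stab1 21st, Folr2 46th and F13a1 80th, while Timd4 ranked 370th. Vsig4 was below the median level and not ranked, and Pecam1 was 1869th, next to last.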

How the data were processed

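Values were the deposited log2 intensities per probe set of 7 arrays. The authors made them in Affymetrix's Expression Console (per the design text of the series), and Transcriptome Analysis Console is named in the submitters' processing notes. Their versions and the summarisation method: not given in the sources used here. The array medians are nearly equal, so a shift common to all genes could not be seen. Of 41345 probe sets, 23521 had 1 symbol in the platform annotation, 1814 several and 16010 none listed; keeping the brightest per gene left 22180 genes (0 symbols changed through RefSeq, 193 identifiers unmatched). No dim genes were removed.

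The genotype comparison used lmFit and eBayes of limma 3.58.1 (R 4.3.3; two-sided, no covariate, Benjamini-Hochberg over all genes). Correlations over arrays were tested two-sided by exact permutation of all 5040 pairings, or of 144 within genotypes, and adjusted over 66 pairs. The fit and the permutation tests were first tested on simulated data. Named were the members, Cdh5, Pecam1, genes for design and sorting, up to 4 genes of smallest p per list, and the 10 genes most like Lyve1. Others (Maf, Ccl8, Cd209b, Cd44, Stab2, Igf1r, Hp, Cd14, C1qc, Col3a1, Col1a1, Col1a2) were named after their values were seen. Listed genes without a probe set of their own were not analysed here. Members and lists were chosen with earlier results of these data known. Figures used matplotlib 3.10.9.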

Additional observations from a re-analysis of the deposited data

Results flagged for a closer look

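In the LysM+/cre group of 4 arrays, 1 array stood apart from the other 3 for 4 of 70 genes examined (the 12 compared genes, those of smallest p in each list, and those most like Lyve1); chance marks about 1 in 20 groups in this way. None was a resident macrophage gene. Chil3, a chitinase-like gene of monocytes and neutrophils, lay at 9.558 on LysM+/cre array 3, against 6.91 to 6.92 on the others. Flt4, a receptor of lymphatic endothelium, lay at 5.352 on the same array, against 5.53 to 5.56. Slc26a3, an epithelial chloride exchanger, lay at 7.055 on LysM+/cre array 2, against 5.55 to 5.80. Cd3d, a T cell receptor subunit, lay at 5.297 on LysM+/cre array 1, and the other 3 arrays shared the value 5.18.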

How the results depend on the processing

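The 10 members were lower with cre under all 18 other settings except Mrc1 with the fibroblast score as a covariate (0.13), and 0 passed an adjusted p of 0.05 under any. With that covariate the median difference was -0.59, 0 members had an unadjusted p under 0.05 and 5 were at least 1.5-fold lower. In that fit 2.36% of all genes were lower at that p, against 4.93% in the main fit. The number at an unadjusted p under 0.05 was 2 without variance moderation and 3 with array weights, where 3.25% and 4.51% of all genes were lower at that p. It was 2 to 7 with 1 array left out, where 3.23% to 5.51% of all genes were. The median difference ran from -1.21 to -0.75 with 1 array left out, and the number at least 1.5-fold lower from 6 to 9. The share of all genes at least 1.5-fold lower was 2.55% in the main fit and was not counted in the other settings. The median r among members ran from 0.52 to 0.81, with Cdh5 and Pecam1 from -0.65 to -0.11, and of Lyve1 with genotype means removed from 0.60 to 0.81. With the neutrophil score as a covariate, chosen after the data were seen, the differences were smaller in size for 7 members (Folr2 -0.61, Igf1 -0.21, Lyve1 -1.51) and larger for Cd163 (-1.10), F13a1 (-1.16) and Mrc1 (-0.55). Arrays of the same number did not all deviate together (r = -0.12, 0.12 and 0.10), so the numbers were not taken as pairs. With the number as a replicate block, Lyve1 differed by -1.68 and the median was -1.03. In that fit 5 members were lower at an unadjusted p under 0.05, where 4.07% of all genes were. The platform gives each member 1 probe set, so averaging probe sets changed no value. Array number and dim signal, as for Vsig4, limit these values.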
